A study of Homo sapiens with 12 samples.

Results

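MCF-10A, a non-tumorigenic breast epithelial cell line, was exposed to the garlic constituent diallyl trisulfide (DATS) at 20 µM for 16 h, or to its solvent dimethyl sulfoxide (DMSO, 0.07%), which both groups therefore received. The comparison uses 6 of the 12 libraries of the study, 3 with DATS and 3 with DMSO. The labels state that samples were made on 3 independent occasions, and libraries of the same number are called a preparation here. The other 6 libraries come from a breast cancer line and enter only as an alternative for the spread. Of 58735 genes in the table, 11668 reached at least 1 FPKM (fragments scaled by the authors to exon length and library depth) in at least 3 of the 6 libraries and were tested. The line is an immortal culture on plastic, the dose and the time are single, and bulk RNA gives an average over all cells of a dish. In bulk samples fewer cells of a kind and less RNA per cell cannot be told apart.

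The polysulfide chain of DATS reacts with thiols, such as the cysteines of proteins and of glutathione, and can release hydrogen sulfide. Cells answer reactive electrophiles through KEAP1, a sensor with reactive cysteines, which frees the transcription factor NRF2 to raise antioxidant and detoxifying enzymes. Basal breast epithelial cells sit on a basement membrane that contains laminin-332, are held together by desmosomes and cadherin junctions, and carry keratins 5 and 14. Their passage through the cell cycle depends on E2F factors, which drive genes of DNA synthesis once cyclin-dependent kinases inactivate the RB protein.

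The labelled cell type was borne out by its markers. Keratin 5 (KRT5) lay between 666 and 1098 FPKM and keratin 14 (KRT14) between 1176 and 1620 FPKM, while the estrogen receptor ESR1 stayed between 0.0485 and 0.168 FPKM and the progesterone receptor PGR was listed at 0 in all 6 libraries. Of the marker lists of fibroblasts, endothelium and leukocytes 8 of 11, 9 of 10 and 14 of 15 genes were under 1 FPKM in every library. The exceptions included COL1A1 at 4.91 to 8.15 FPKM, which made up most of a fibroblast sum of 7.30 to 13.1 FPKM with DMSO and 8.52 to 12.8 FPKM with DATS, and CD14 at 4.01 to 6.70 FPKM. CD3E and FCGR3A were listed at 0. The libraries held 16536482 to 18407213 reads in genes.

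DATS raised 1323 genes (11.3% of those tested) and lowered 670 (5.74%) at an adjusted p under 0.05, from limma with the preparation as a block and Benjamini-Hochberg adjustment over all 11668 genes. "Rose" and "fell" are used only of genes that passed this test, and log2 changes are given ± SE on the log2(FPKM + 1) scale, which understates changes of genes with low FPKM. The typical change was small. The median size of a called rise was 0.43 and that of a called fall 0.40, and 843 of the rises and 455 of the falls were under 0.5. A change of at least 1, which is 2-fold on this scale, was reached by 78 rising and 27 falling genes. Among protein-coding genes it was reached by 68 rises and by the falls of E2F2 and EGR1 alone, and the other falls of that size were in noncoding RNAs or pseudogenes. The groups did not overlap in 3605 genes: every treated value exceeded every control value in 2074 (17.8%) and was under it in 1531 (13.1%). Of the 1323 genes that rose, 28 were members of a list of NF-kB and inflammatory genes. That list had 34 tested members, of which 82.4% rose, against 11.3% of all tested genes, and none fell (median log2 change 1.32). Its rises numbered 23 without replicate 1 and 19 without the replicate block. Counts of list members below are to be read beside the 11.3% and 5.74% of all tested genes that rose and fell.

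**Figure D1:**
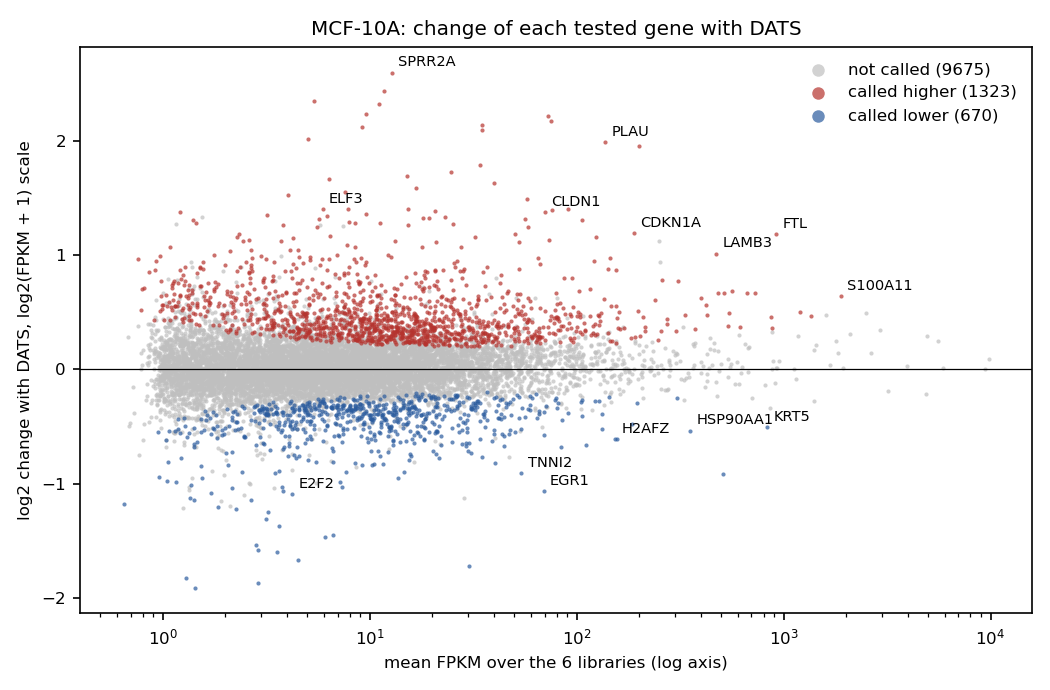
Log2 change with DATS (vertical axis) against the mean FPKM of the 6 MCF-10A libraries (horizontal log axis) for each of 11668 tested genes, with 1323 called higher in red and 670 called lower in blue. Rises extend further from 0 than falls among genes above 10 FPKM, and abundant genes such as S100A11 and KRT5 changed by less than 1.

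Rises outnumbered falls, but this balance depends on the scaling. With the FPKM as deposited 66.4% of called genes were higher. After quantile normalization, which gives every library the same distribution of values, 1029 genes were higher and 942 lower (52.2% higher). After rescaling to equal totals 837 were higher and 989 lower (45.8%), and edgeR on reads recovered from the FPKM gave 1443 and 1167 (55.3%). The median log2 change over all tested genes was 0.03 as deposited and -0.06 with equal totals, and changes near that size have no fixed sign. No gene called here had the opposite sign under either rescaling or in edgeR or DESeq2.

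Preparation 3 stood apart before and after treatment. Across all tested genes the log2 change in preparation 1 correlated with that in preparation 2 at r = 0.764, and with that in preparation 3 at r = 0.432 (preparations 2 and 3, r = 0.461). These are descriptions over 11668 genes that share libraries of 1 dish pair each. Genes that rose did so by a median of 0.47, 0.49 and 0.31 in preparations 1, 2 and 3, and the rise was smallest in preparation 3 for 983 of 1323 genes (74.3%, against 48.0% of all tested genes). Genes that fell had medians of -0.41, -0.42 and -0.37. The untreated library of preparation 3 already lay on the side of the treated ones: it was the highest of the DMSO libraries in 1057 of the 1323 rising genes (79.9%) and the lowest in 454 of the 670 falling genes (67.8%). Among the 9675 genes not called it was highest in 44.3% and lowest in 40.9%. Without preparation 3 the counts were 2529 higher and 1527 lower, and without preparation 1 they were 380 and 246. Without preparation 2 no gene passed (lowest adjusted p = 0.133, with 1412 higher and 819 lower at an unadjusted p under 0.05 in limma). No call below therefore passes without preparation 2, though no called gene turned sign in that fit. The part of having fewer libraries in this loss was not tested. Ribosomal RNA took 0.249%, 0.243% and 0.257% of reads in DMSO libraries 1, 2 and 3 and 0.365%, 0.386% and 0.261% in the DATS libraries, so that it too moved least in preparation 3. This share counts mitochondrial with nuclear ribosomal RNA genes, and most of it came from the 2 mitochondrial ones. Its part in the results was not tested.

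**Figure D2:**
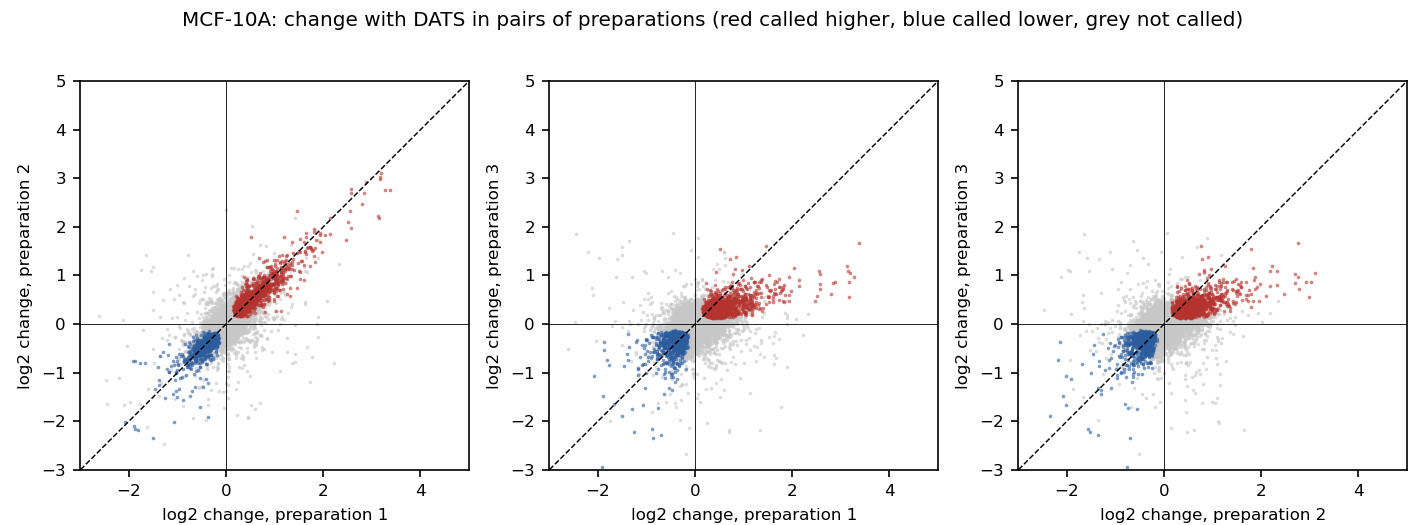
Log2 change with DATS in 1 preparation against another for every tested gene, red for genes called higher, blue for genes called lower and grey for genes not called, with the line of equality dashed (2 genes lie outside the axes). Preparations 1 and 2 follow the dashed line, while in preparation 3 the red points fall under it.

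The basement membrane and its receptors gave the largest gains in abundant transcripts after ferritin, S100 proteins and galectin. Of 21 hemidesmosome, integrin and laminin genes tested, 9 rose and 2 fell (median log2 change 0.21, against 0.03 over all genes). The rises numbered 6 without preparation 1 and 4 without the block. LAMA3 and LAMB3 encode chains of laminin-332. LAMB3 was at 219, 293 and 451 FPKM in DMSO libraries 1, 2 and 3 and at 519, 671 and 689 FPKM with DATS (1.01 ± 0.14, adjusted p = 0.0202 in limma). LAMA3 went from 48.0, 59.7 and 82.9 FPKM to 86.6, 109 and 135 FPKM (0.80 ± 0.06, adjusted p = 0.0199). Both chains rose in every preparation, and their groups were separate. ITGB6, the beta chain of an integrin that activates latent TGF-beta, rose by 1.07 ± 0.11 from 8.41, 9.74 and 16.3 FPKM to 21.6, 23.3 and 28.6 FPKM (adjusted p = 0.0199). Both genes of the list that fell encode other matrix proteins of the epithelial base, the laminin alpha 5 chain LAMA5 and the anchoring fibril collagen COL7A1 (-0.43 and -0.37), and they are named because they went against the list.

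Proteases that act on this matrix and their inhibitors rose together. Of 16 genes of the urokinase system and the matrix proteases, 9 rose and 1 fell (median 0.41), and of 20 serpins and other protease inhibitors 13 rose and none fell (median 0.42). The protease rises numbered 3 without preparation 1 and 5 without the block. The urokinase receptor PLAUR was at 11.6, 15.2 and 35.3 FPKM with DMSO and at 54.4, 57.6 and 66.5 FPKM with DATS (1.63 ± 0.23, adjusted p = 0.0202). Every treated library lay above every untreated one. MMP9, a gelatinase, rose from 0.850, 1.21 and 7.28 FPKM to 3.44, 4.22 and 10.3 FPKM (0.98 ± 0.18, adjusted p = 0.0262), and DMSO library 3 exceeded 2 of the treated ones. SERPINB2, plasminogen activator inhibitor 2, went from 19.8, 21.4 and 67.8 FPKM to 56.4, 60.9 and 90.6 FPKM (1.11 ± 0.22, adjusted p = 0.0311), and DMSO library 3 overlapped the treated range. CST6, a secreted inhibitor of cysteine proteases, rose by 1.15 ± 0.13 with separate groups (adjusted p = 0.0199). Without preparation 3 the inhibitor count was 17, without preparation 1 it was 6, and with no block 4.

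Genes of the cell surface and the cell edge changed in part. Of 21 tight and adherens junction genes, 8 rose and none fell (median 0.25). CLDN1, the barrier claudin of skin and breast, went from 27.8, 34.8 and 57.4 FPKM to 113, 98.3 and 92.5 FPKM (1.38 ± 0.24, adjusted p = 0.0241). CLDN4, another claudin, went from 5.79, 7.07 and 25.5 FPKM to 37.9, 33.7 and 38.8 FPKM (1.73 ± 0.36, adjusted p = 0.0342). The groups were separate for both claudins, and in both DMSO library 3 was the highest control. LSR, a protein of tricellular junctions, rose by 0.57 ± 0.10 (adjusted p = 0.0241). The junction count was 5 after quantile normalization, 4 with equal totals, 2 without the block, 2 without preparation 1 and 15 without preparation 3. Of 9 desmosome genes, 2 rose (22.2%) and 1 fell (11.1%), against 11.3% and 5.74% of all tested genes. The plaque protein JUP rose by 0.36 ± 0.07 and the cadherin DSC3 fell by 0.39 on the log2 scale (adjusted p = 0.0276 and 0.0381 in limma).

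S100 proteins are small calcium-binding proteins, many of which lie in the epidermal gene cluster of chromosome 1. Of 13 members 6 rose (46.2%, against 11.3% of all tested genes) and none fell. S100A11 was at 1197, 1246 and 2054 FPKM with DMSO and at 1967, 2027 and 2906 FPKM with DATS (0.64 ± 0.10, adjusted p = 0.0208), the largest gain in FPKM of any gene called higher outside the inflammatory list. S100A10, a partner of annexin A2, went from 300, 310 and 536 FPKM to 539, 553 and 671 FPKM (0.67 ± 0.12, adjusted p = 0.0273). DMSO library 3 was the highest control for both, and for S100A11 it was above DATS libraries 1 and 2. The median change over the 13 S100 genes was 0.72 in preparation 1, 0.66 in preparation 2 and 0.01 in preparation 3. Without the block or without preparation 1 no member passed, and without preparation 3 the count was 12. Galectin 1 (LGALS1), a sugar-binding protein, rose from 1066, 1063 and 1317 FPKM to 1569, 1585 and 1587 FPKM (0.47 ± 0.10, adjusted p = 0.0363), with separate groups.

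Single keratins moved in opposite directions. Of 11 basal and stress keratins none rose and 2 fell (18.2%, against 5.74% of all tested genes), with a median of 0.01. The basal keratins KRT14 and KRT17 had -0.27 ± 0.11 and 0.25 ± 0.11, and neither passed (adjusted p = 0.132 and 0.156 in limma). KRT5, a keratin of basal cells, was at 1098, 917 and 922 FPKM with DMSO and at 709, 690 and 666 FPKM with DATS (-0.50 ± 0.08, adjusted p = 0.0227). KRT10, a keratin of cells that have left the basal layer of skin, fell from 36.9, 24.9 and 21.8 FPKM to 17.5, 15.1 and 13.9 FPKM (-0.78 ± 0.09, adjusted p = 0.0199). KRT7, a keratin of simple epithelia, rose from 669, 642 and 891 FPKM to 897, 910 and 1212 FPKM (0.46 ± 0.07, adjusted p = 0.0225). In all 3 genes the groups were separate. Of the 6 luminal breast markers above the filter, 4 rose, and their summed level was 133 to 158 FPKM with DMSO and 218 to 248 FPKM with DATS. KRT18, KRT8 and XBP1 made up most of it, with means of 61.4, 45.8 and 26.3 FPKM with DMSO and 98.1, 87.9 and 34.2 FPKM with DATS, and pseudogenes could share reads of both keratins. The luminal markers PGR and TFF3 were listed at 0 throughout, and TP63, a factor of basal cells, had a log2 change of -0.06 ± 0.09 (adjusted p = 0.632). Whether some cells of the dish account for these values was not tested.

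**Figure D3:**
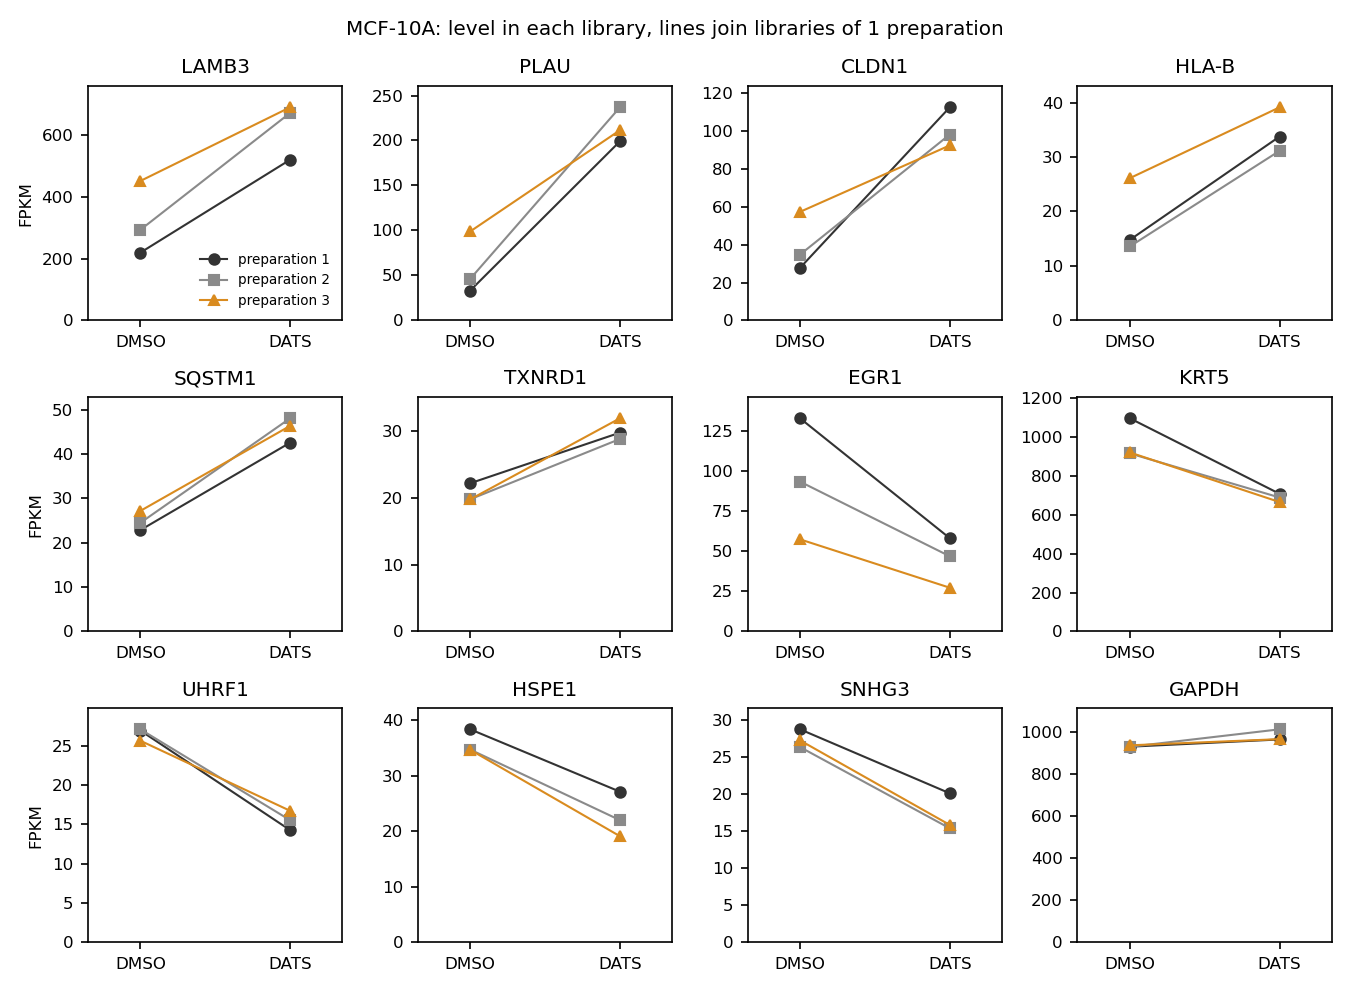
FPKM of 12 genes in each MCF-10A library (vertical axis from 0), with lines joining the DMSO and DATS libraries of 1 preparation. LAMB3, PLAU, CLDN1, HLA-B, SQSTM1 and TXNRD1 rose in all 3 preparations, EGR1, KRT5, UHRF1, HSPE1 and SNHG3 fell in all 3, and GAPDH (0.07 ± 0.08) did not pass the test.

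Most ERK feedback genes tested rose, and of the early response genes named here IER3 rose while EGR1 and FOS fell. Of 21 ERK feedback genes, 14 rose and 1 fell (median 0.43), with 17 and 1 without preparation 3, 4 and 1 without preparation 1, and 2 and 0 without the block. IER3, an early response gene with a role in cell survival, went from 83.9, 81.9 and 128 FPKM to 180, 219 and 173 FPKM (0.98 ± 0.18, adjusted p = 0.0281), and FOSL1, the FOS family member FRA1, from 20.9, 26.9 and 51.1 FPKM to 48.0, 51.3 and 58.6 FPKM (0.75 ± 0.18, adjusted p = 0.0473). Among phosphatases that switch off MAP kinases, DUSP4, DUSP5 and DUSP6, chosen after their values were seen, rose by 0.65, 0.52 and 0.61. EGR1, a zinc finger factor induced within minutes of ERK activation, was at 133, 93.3 and 57.3 FPKM with DMSO and at 58.1, 46.8 and 27.2 FPKM with DATS (-1.07 ± 0.06, adjusted p = 0.0199). FOS went from 17.4, 9.79 and 9.16 FPKM to 7.12, 7.12 and 4.42 FPKM (-0.83 ± 0.15, adjusted p = 0.0260). Untreated EGR1 differed by more than 2-fold between preparations, so its groups overlapped slightly, whereas within each preparation the treated library was the lower one. The FOS groups were separate. Of 11 AP-1 genes, the family of FOS and JUN, 2 rose (18.2%) and 1 fell (9.09%), against 11.3% and 5.74% of all tested genes (median 0.12).

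Secreted regulators of the TGF-beta family were among 10 of 25 TGF-beta and BMP genes that rose, while none fell (median 0.05). These rises numbered 6 without preparation 1 and 4 without the block. FST, the activin-binding protein follistatin, rose from 18.3, 27.4 and 51.5 FPKM to 67.6, 67.5 and 71.1 FPKM (1.19 ± 0.25, adjusted p = 0.0343). INHBA, the subunit of activin A that follistatin binds, rose from 0.662, 1.07 and 1.38 FPKM to 3.62, 3.95 and 3.03 FPKM (1.16 ± 0.15, adjusted p = 0.0202), and BAMBI, a decoy receptor, rose by 0.94 ± 0.20 (adjusted p = 0.0367). Ligand and antagonist thus rose side by side. Of 14 TNF receptor family genes 6 rose (42.9%, against 11.3% of all tested genes), with 1 without preparation 1 and 10 without preparation 3. Among the 6 were the death receptor TNFRSF10B and the decoy receptor TNFRSF10D (0.46 ± 0.08 and 0.49 ± 0.07, adjusted p = 0.0249 and 0.0209). Of 19 Notch genes 1 rose (5.26%, against 11.3% of all tested genes) and 4 fell (21.05%, against 5.74%). The falls included the ligand JAG2 from 25.0, 24.1 and 20.3 FPKM to 14.4, 15.7 and 16.2 FPKM (-0.55 ± 0.09, adjusted p = 0.0241) and the Notch target NRARP (-0.68 ± 0.11, adjusted p = 0.0240).

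Of 34 lineage and transition factors 15 rose (44.1%, against 11.3% of all tested genes) and 1 fell. Without preparation 1 the rises numbered 3 and without the block 4. ELF3, an epithelial ETS factor, went from 2.93, 2.0 and 3.39 FPKM to 11.2, 9.96 and 6.19 FPKM (1.41 ± 0.22, adjusted p = 0.0220), and SOX4 from 11.9, 12.7 and 14.8 FPKM to 27.2, 26.3 and 20.2 FPKM (0.85 ± 0.14, adjusted p = 0.0231). Groups were separate for both, and DATS library 3 was the lowest of the treated group. MXD4 and MXD1, partners of MAX that oppose MYC, were named after their values were seen and rose by 0.60 and 0.53. MYC itself was at 80.6, 78.3 and 88.8 FPKM with DMSO and 81.3, 76.6 and 83.7 FPKM with DATS (-0.03 ± 0.05, adjusted p = 0.680). The clock repressors BHLHE40 and BHLHE41 rose by 0.65 ± 0.13 and 0.71 ± 0.11, within a list of 25 nuclear receptor and clock genes of which 4 rose and none fell. That share, 16.0%, is near the 11.3% of all tested genes, the list median was -0.02, and without preparation 1 no member passed.

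Single genes of the actin and microtubule apparatus rose. MYL9, a myosin light chain, went from 5.81, 5.44 and 14.8 FPKM to 14.9, 15.1 and 20.1 FPKM (0.99 ± 0.18, adjusted p = 0.0275) and the small GTPase RHOC from 28.8, 29.6 and 48.9 FPKM to 49.5, 53.4 and 68.5 FPKM (0.69 ± 0.08, adjusted p = 0.0199). Treated libraries were above all untreated ones in both. ACTB, beta actin, had 0.34 ± 0.10 and did not pass (adjusted p = 0.0683). Of 23 tubulin and microtubule genes 6 rose (26.1%) and 1 fell (4.35%), against 11.3% and 5.74% of all tested genes. Without the block no member was called in either direction. TUBA1A went from 19.4, 18.2 and 61.0 FPKM to 70.8, 70.8 and 104 FPKM (1.49 ± 0.23, adjusted p = 0.0212) and TUBB2A rose by 0.87 ± 0.12 (adjusted p = 0.0202), both with near-identical relatives that could share reads.

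Antigen presentation genes were higher in part. MHC class I molecules carry peptides, cut by the immunoproteasome and pumped by the TAP transporter, to the cell surface. Of 17 genes of this route, 11 rose and none fell (median 0.48), with 13 without preparation 3, 4 without preparation 1 and 2 without the block. HLA-B was at 14.8, 13.6 and 26.1 FPKM with DMSO and at 33.8, 31.1 and 39.1 FPKM with DATS (0.95 ± 0.13, adjusted p = 0.0202). TAP1, a TAP subunit, went from 6.80, 7.25 and 8.89 FPKM to 12.9, 12.6 and 11.9 FPKM (0.65 ± 0.10, adjusted p = 0.0212), and the immunoproteasome subunit PSMB9 from 1.03, 0.775 and 0.619 FPKM to 1.97, 2.42 and 1.24 FPKM (0.65 ± 0.13, adjusted p = 0.0305). Groups did not overlap in these 3 genes, though reads of class I genes can be shared among alleles and relatives. The immunoproteasome subunits PSMB8 and PSMB10 had 0.33 ± 0.12 and 0.53 ± 0.22 and did not pass (adjusted p = 0.121 and 0.147 in limma). Nor did the TAP subunit TAP2, with -0.04 ± 0.06 (adjusted p = 0.704). Of 27 interferon-stimulated genes 19 rose and none fell (median 0.52), with 7 rises without preparation 1 and 10 without the block. Their levels were low, for example 1.24, 0.903 and 1.98 FPKM for IFI27 with DMSO and 3.60, 3.08 and 3.40 FPKM with DATS (0.90 ± 0.13, adjusted p = 0.0202). ISG15, a ubiquitin-like protein, rose by 0.84 ± 0.17 (adjusted p = 0.0331) and the nuclease ISG20 by 0.77 ± 0.14 (adjusted p = 0.0282). Of the leukocyte list only CD14 was above the filter, and it did not pass (0.30 ± 0.09, adjusted p = 0.0695). The leukocyte receptor PTPRC was at 0.0127 FPKM or less.

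Redox genes rose as a subset. Of 35 NRF2 targets 15 rose (42.9%, against 11.3% of all tested genes) and none fell (median 0.16). The median was 0.22 in preparation 1, 0.25 in preparation 2 and 0.23 in preparation 3. The count was 6 both without preparation 1 and without the block. The other 20 targets did not pass. Among them, chosen after their values were seen, were GCLC, GCLM, SRXN1, SLC7A11 and GSR (0.09, 0.16, 0.11, 0.07 and -0.03). The ferritin heavy chain FTH1 went from 495, 522 and 669 FPKM to 879, 934 and 857 FPKM (0.67 ± 0.12, adjusted p = 0.0252). TXNRD1, thioredoxin reductase 1, chosen after its values were seen, went from 22.2, 19.8 and 19.8 FPKM to 29.7, 28.8 and 31.9 FPKM (0.53 ± 0.07, adjusted p = 0.0202). Separate groups were seen in both. In a wider list of 37 glutathione and thiol genes 8 rose (21.6%, against 11.3% of all tested genes) and none fell. The list was close in median (0.04) to all genes, and 2 rose without preparation 1 or without the block. The extracellular peroxidase GPX3 rose from 0.556, 0.720 and 1.20 FPKM to 3.05, 3.38 and 1.67 FPKM (1.00 ± 0.24, adjusted p = 0.0447) and glutaredoxin GLRX by 0.61 ± 0.10 (adjusted p = 0.0223). CHAC1, a glutathione-degrading enzyme, had 0.61 ± 0.17 and did not pass (adjusted p = 0.0606).

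Enzymes that handle sulfide were of interest because DATS can release it. Of 13 sulfide and methanethiol enzymes 2 rose (15.4%) and 1 fell (7.69%), shares close to the 11.3% and 5.74% of all tested genes. SQOR, the mitochondrial quinone oxidoreductase that takes the first step of sulfide oxidation, was at 11.5, 13.6 and 18.8 FPKM with DMSO and at 25.9, 28.0 and 27.1 FPKM with DATS (0.87 ± 0.12, adjusted p = 0.0202), and ETHE1, the persulfide dioxygenase of the next step, went from 21.0, 19 and 30.8 FPKM to 28.1, 29.7 and 37.6 FPKM (0.43 ± 0.08, adjusted p = 0.0268). The treated SQOR libraries were all above the untreated ones, while DMSO library 3 of ETHE1 exceeded 2 treated ones. PHGDH, the first enzyme of serine synthesis, fell from 6.93, 6.56 and 4.54 FPKM to 4.05, 4.40 and 2.91 FPKM (-0.55 ± 0.07, adjusted p = 0.0202).

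Receptors and membranes of the degradation route rose. Selective autophagy delivers marked cargo to the lysosome through receptors such as SQSTM1 (p62) and optineurin (OPTN). SQSTM1 was at 22.9, 24.5 and 27.2 FPKM with DMSO and at 42.6, 48.1 and 46.4 FPKM with DATS (0.85 ± 0.06, adjusted p = 0.0199). OPTN went from 14, 14.6 and 17.6 FPKM to 25.3, 26.7 and 28.9 FPKM (0.78 ± 0.06, adjusted p = 0.0199). With FTL and LAMA3 these were the 4 rises with the largest ratio of change to its error among genes of at least 5 FPKM. Of 29 autophagy genes 11 rose and none fell (median 0.22; 6 with equal totals, 6 without the block and 4 without preparation 1), among them MAP1LC3A, a protein of the autophagosome membrane (0.72 ± 0.17, adjusted p = 0.0435). Of 43 lysosome enzymes and proton pump subunits 17 rose and none fell (median 0.19), which were 10 after quantile normalization, 3 without preparation 1 and 0 without the block. The sphingomyelinase SMPD1 went from 5.77, 5.30 and 8.65 FPKM to 8.97, 10.3 and 11.6 FPKM (0.59 ± 0.10, adjusted p = 0.0230) and progranulin GRN from 59.5, 61.6 and 80.9 FPKM to 81.2, 88.6 and 110 FPKM (0.46 ± 0.05, adjusted p = 0.0199). Both had separate groups.

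The endoplasmic reticulum and the Golgi shared in this. Of 24 ER stress genes and secretory chaperones 10 rose and none fell (median 0.25), led by the co-chaperone DNAJB9 (0.63 ± 0.13, adjusted p = 0.0359) and HERPUD1 of the ER disposal machinery (0.46 ± 0.08, adjusted p = 0.0262). Of 41 coat and Golgi genes 9 rose and none fell, and the small GTPase ARF4 went from 76.4, 77.9 and 112 FPKM to 136, 137 and 156 FPKM (0.70 ± 0.09, adjusted p = 0.0202). The ER count was 2 without the block and 0 without preparation 1 (limma). The coat and Golgi count was 5 after quantile normalization, 2 with equal totals, 1 without the block and 1 without preparation 1. ATF4 targets did not follow: 2 of 27 rose (7.41%) and 4 fell (14.8%), against 11.3% and 5.74% of all tested genes (median -0.06). ALDH1L2, a mitochondrial folate enzyme, fell from 16.7, 15.9 and 9.71 FPKM to 7.93, 8.47 and 7.53 FPKM (-0.72 ± 0.13, adjusted p = 0.0276), and NUPR1, a stress-induced nuclear protein, had 0.58 and did not pass (adjusted p = 0.0502).

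Single chaperones of the cytosol and the mitochondrial matrix changed in both directions. Of 33 heat shock and chaperone genes 3 rose (9.09%, against 11.3% of all tested genes) and 6 fell (18.2%, against 5.74%). The share of rises was thus near that of all genes. After quantile normalization the counts were 3 and 11. Without preparation 1 they were 1 and 1, and without the block 0 and 3. HSPE1 and HSPD1, which together form the mitochondrial folding chamber, both fell. HSPE1 went from 38.4, 34.7 and 34.7 FPKM to 27.1, 22.0 and 19.1 FPKM (-0.65 ± 0.08, adjusted p = 0.0199), and HSPD1 from 231, 219 and 195 FPKM to 156, 151 and 155 FPKM (-0.48 ± 0.07, adjusted p = 0.0205). CRYAB, a small heat shock protein, rose by 0.67 ± 0.10 (adjusted p = 0.0205). Groups were separate for the chamber genes and overlapped for CRYAB.

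**Figure D4:**
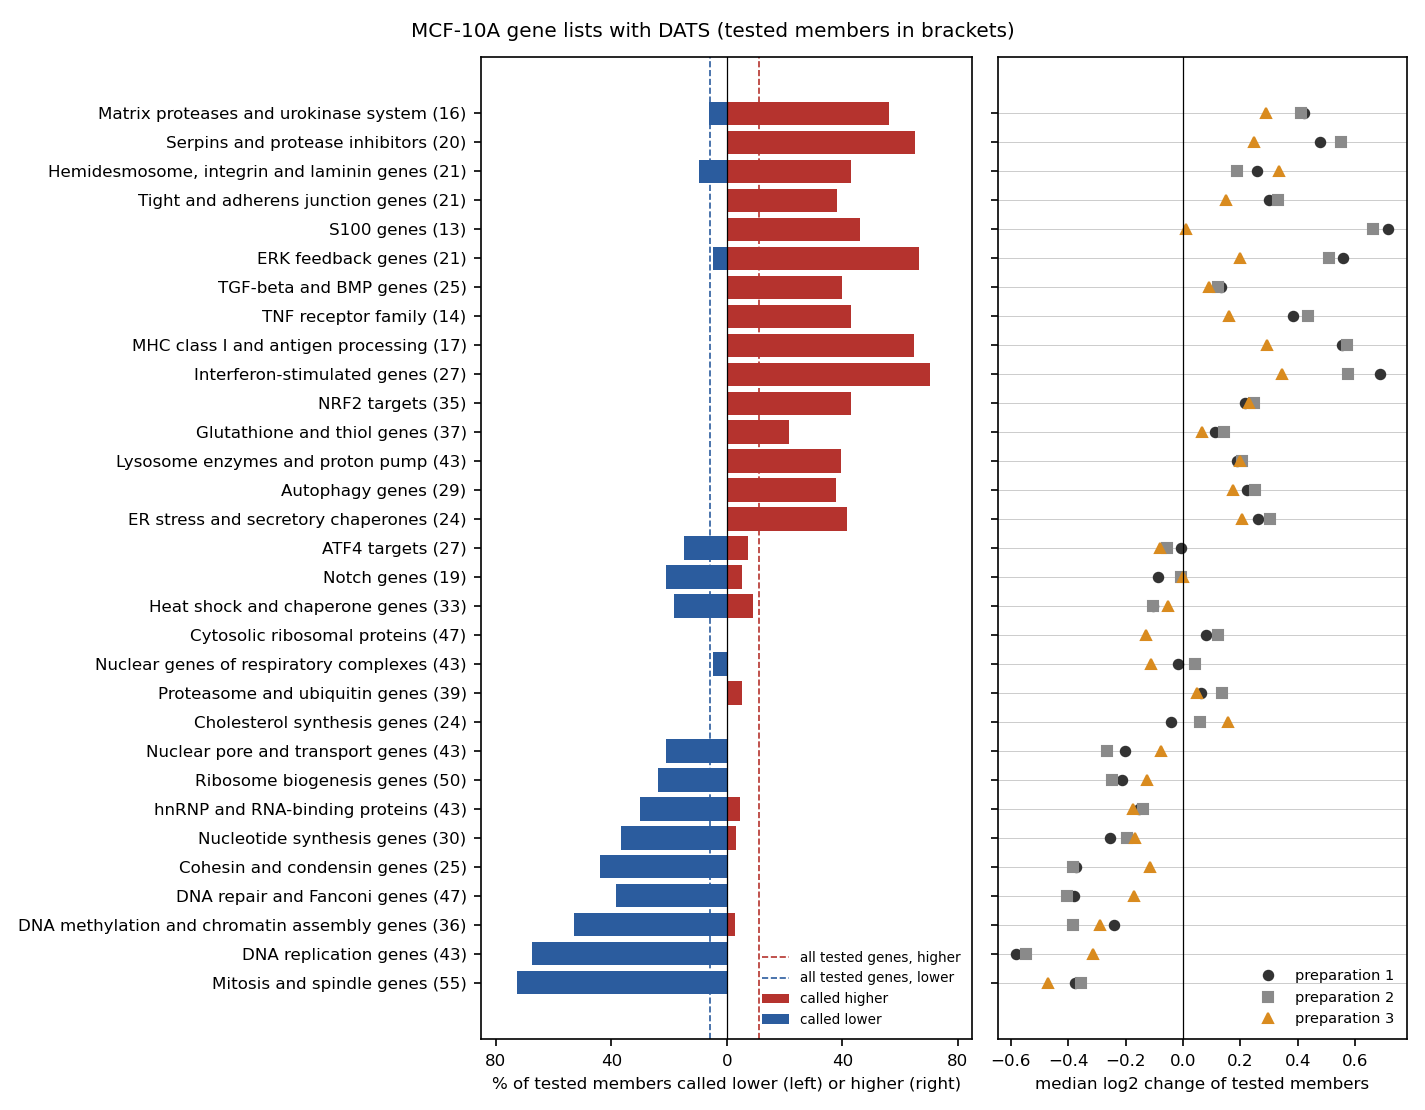
Left, percentage of tested members of 31 gene lists called higher (red, to the right) or lower (blue, to the left), with dashed lines at 11.3% and 5.74% for all tested genes. Right, median log2 change of the tested members in each preparation, which for S100 genes was 0.72, 0.66 and 0.01 and for mitosis genes was most negative in preparation 3.

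Genes of the dividing nucleus fell. Of 43 DNA replication genes 29 fell and none rose (median -0.51), of 55 mitosis and spindle genes 40 fell and none rose (median -0.40), and of 25 cohesin and condensin genes 11 fell and none rose (median -0.31), against 5.74% of all tested genes. MCM2, a subunit of the replicative helicase, went from 23.4, 22.6 and 15.1 FPKM to 11, 11.1 and 12 FPKM (-0.76 ± 0.15, adjusted p = 0.0295), and PRIM1, the primase that starts each new strand, from 5.49, 5.63 and 3.72 FPKM to 2.24, 2.93 and 2.76 FPKM (-0.70 ± 0.14, adjusted p = 0.0311). In mitosis, the kinetochore protein CENPF went from 30.1, 29.1 and 17.5 FPKM to 16.4, 17.2 and 11.4 FPKM (-0.72 ± 0.07, adjusted p = 0.0199) and TOP2A, which untangles chromosomes, from 64.1, 58.7 and 41.9 FPKM to 40.7, 39.4 and 23.6 FPKM (-0.67 ± 0.07, adjusted p = 0.0199). Every treated library was under every untreated one in these 4 genes. The helicase and primase differences were smallest in preparation 3, and the replication list had medians of -0.58, -0.55 and -0.31. Mitosis genes ran the other way, with -0.38, -0.36 and -0.47. Without the block 24 replication genes and 10 mitosis genes passed, and without preparation 1 these counts were 16 and 20. The cohesin and condensin count was 4 in either case and 21 without preparation 3.

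The machinery that copies chromatin along with DNA fell as well. Of 36 DNA methylation and chromatin assembly genes 19 fell and 1 rose (median -0.32), and without preparation 1 the falls numbered 10. UHRF1, which brings the maintenance methyltransferase to newly copied DNA, was at 26.9, 27.1 and 25.6 FPKM with DMSO and at 14.3, 15.5 and 16.7 FPKM with DATS (-0.74 ± 0.07, adjusted p = 0.0199). NASP, a histone chaperone, went from 23.8, 23.6 and 19.5 FPKM to 14.8, 13.5 and 14.2 FPKM (-0.61 ± 0.08, adjusted p = 0.0202), and lamin B1 (LMNB1) from 51.2, 50.9 and 41.0 FPKM to 32.9, 31.3 and 27.0 FPKM (-0.63 ± 0.05, adjusted p = 0.0199). Separate groups were seen in all 3. The methyltransferase itself, DNMT1, chosen after its values were seen, fell by 0.46 on the log2 scale. Abundant chromatin proteins gave the largest losses of level in this group: the variant histone H2AFZ went from 189, 181 and 186 FPKM to 130, 122 and 112 FPKM (-0.61 ± 0.06, adjusted p = 0.0199) and HMGN2, a nucleosome-binding protein, from 200.1, 193 and 176 FPKM to 139, 123 and 111 FPKM (-0.61 ± 0.06, adjusted p = 0.0199).

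Among 12 histone genes of the classical clusters and their relatives, 8 rose and none fell. The linker histone H1F0, a replication-independent gene, was at 19.1, 18.5 and 19.5 FPKM with DMSO and at 57.0, 53.5 and 27.1 FPKM with DATS (1.16 ± 0.22, adjusted p = 0.0284). HIST1H2BK went from 30.1, 25.4 and 49.4 FPKM to 79.4, 72.1 and 94.0 FPKM (1.25 ± 0.11, adjusted p = 0.0199). Groups were separate for both. Near-identical copies could share reads of HIST1H2BK. Many histone transcripts lack a poly(A) tail, and whether library make-up moved with treatment was not tested.

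DNA repair and nucleotide supply followed replication. Of 47 repair and Fanconi genes 18 fell and none rose (median -0.31). The falls numbered 5 without preparation 1, 33 without preparation 3 and 10 without the block. RAD54L, a helper of homologous recombination, went from 7.45, 7.30 and 5.21 FPKM to 3.26, 3.61 and 3.23 FPKM (-0.80 ± 0.10, adjusted p = 0.0202) and XRCC2, of the same route, from 4.5, 4.53 and 3.92 FPKM to 2.21, 2.46 and 2.10 FPKM (-0.71 ± 0.07, adjusted p = 0.0199). In both genes all treated libraries lay under all untreated ones. Of 30 nucleotide synthesis genes 11 fell and 1 rose (median -0.22), with 4 falls without preparation 1 and 7 without the block. DUT, which removes dUTP, fell by 0.55 on the log2 scale (adjusted p = 0.0199 in limma). The one that rose was RRM2B, the p53-inducible subunit of ribonucleotide reductase, from 13, 12.3 and 12.4 FPKM to 19.5, 18.1 and 16.9 FPKM (0.50 ± 0.06, adjusted p = 0.0199).

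RNA handling in the nucleus declined by smaller amounts. Of 43 hnRNP and RNA-binding genes 13 fell and 2 rose (median -0.18), of 50 ribosome biogenesis genes 12 fell and none rose (median -0.20), and of 43 nuclear pore and transport genes 9 fell and none rose (median -0.20). HNRNPH1, a splicing regulator, went from 68.6, 67.9 and 57.2 FPKM to 52.9, 51.2 and 40.9 FPKM (-0.41 ± 0.05, adjusted p = 0.0202), NOC3L of the nucleolus from 9.72, 9.5 and 8.86 FPKM to 6.44, 6.14 and 6.11 FPKM (-0.52 ± 0.06, adjusted p = 0.0199), and RCC1, the chromatin-bound exchange factor of RAN, from 34.6, 34.2 and 32.5 FPKM to 25.9, 23.7 and 22.8 FPKM (-0.47 ± 0.05, adjusted p = 0.0199). Treated libraries were below all untreated ones in these 3 genes. Without the block the counts were 1, 5 and 2 falls, without preparation 1 they were 1, 3 and 2, and after quantile normalization they were 22, 21 and 15. BTG1, an antiproliferative protein of the RNA decay route, was the larger of the 2 rises (0.80 ± 0.10, adjusted p = 0.0202).

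Several large gene families gave few or no calls. None of 47 cytosolic ribosomal protein genes passed (range of log2 change -0.19 to 0.19, median 0.02), none of 24 cholesterol synthesis genes and none of 13 protein-coding genes of the mitochondrial genome. Of 43 nuclear genes of the respiratory complexes 2 fell (4.65%), and of 28 TCA cycle and pyruvate enzymes 1 fell (3.57%). Of 39 proteasome and ubiquitin genes 2 rose (5.13%), SQSTM1 among them, and of 23 aminoacyl-tRNA synthetases 2 rose (8.70%). These shares were under the 5.74% of all tested genes that fell and the 11.3% that rose. At an unadjusted p under 0.05 in limma 1 ribosomal protein gene was higher and 1 lower, 4 cholesterol genes were higher and 1 mitochondrial gene was higher, and edgeR and DESeq2 called none of the 3 families but 1 cholesterol gene higher in edgeR. For ribosomal proteins quantile normalization gave 6 falls, equal totals 5 falls and leaving out preparation 3 gave 13 rises. Of 26 glycolysis genes 2 rose (7.69%) and 1 fell (3.85%), shares also under those of all tested genes. LDHB, a lactate dehydrogenase subunit, was the fall (-0.56, adjusted p = 0.0199).

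Of 600 long noncoding genes 43 rose (7.17%, against 11.3% of all tested genes) and 46 fell (7.67%, against 5.74%). Host genes of small nucleolar RNAs were among the falls. SNHG4 was at 14.4, 13.4 and 12.4 FPKM with DMSO and at 8.09, 7.14 and 6.09 FPKM with DATS (-0.83 ± 0.06, adjusted p = 0.0199), and SNHG3 went from 28.7, 26.3 and 27.2 FPKM to 20.1, 15.4 and 15.8 FPKM (-0.66 ± 0.07, adjusted p = 0.0199). DANCR went from 35.6, 29.2 and 32.4 FPKM to 20.8, 21.6 and 22.9 FPKM (-0.55 ± 0.08, adjusted p = 0.0205). Groups were separate for all of these. HCP5, a noncoding gene of the MHC region, rose from 1.5, 1.60 and 1.66 FPKM to 3.30, 3.27 and 4.42 FPKM (0.84 ± 0.09, adjusted p = 0.0199). The use of strand in counting is not given in the sources used here, so reads of overlapping genes could be counted for either.

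Short RNAs made up most of the falls of at least 2-fold. Genes with 200 bases of exon or less, 210 of those tested, held 10 rises and 36 falls, and 23 of the falls were at least 2-fold. Their median number of reads was 23 over all 6 libraries, so single values rest on few reads. Of 21 mitochondrial tRNA genes 7 fell and none rose. MT-TY had the most reads of the 7 and, like MT-RNR1, was named after its values were seen, with 71, 69 and 33 in the DMSO libraries and 15, 14 and 14 with DATS (-1.72 ± 0.21, adjusted p = 0.0199). The 12S ribosomal RNA gene MT-RNR1 rose, with 4956, 6069 and 7004 reads against 7878, 8663 and 7657 (0.57 ± 0.12, adjusted p = 0.0338). The groups were separate for both genes, in opposite directions. The share of ribosomal RNA given above includes the reads of MT-RNR1, so it is not a separate measure to set beside that rise. Its part in the MT-TY value was not tested. Each of RNU7-47P, MIR6499 and MIR3929 was listed at 0 in all treated libraries, against 10, 9 and 4 reads in all untreated ones together, and no fold is given.

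Start regions of genes that moved together are shown for the letters that factors of these routes are known to read. Promoter sequences from RefSeq (GRCh38.p14, 250 bases before to 50 after the start) were found for 8361 of 10400 tested protein-coding genes. An E2F type motif, TTTNGCGC or TTTCCCGC on either strand, was in 12.6% of 445 promoters of genes that fell, 3.23% of 961 promoters of genes that rose and 5.86% of all tested promoters. It was in 3.43% of all 27305 promoters of that length. The CCAAT box was in 49.2%, 36.1% and 37.4% of falling, rising and all tested promoters (35.7% of all promoters). An AP-1 type motif, TGANTCA, was in 7.80% of rising, 1.80% of falling and 4.56% of tested promoters (7.76% of all), and TATAAA in 7.91%, 5.84% and 5.05% (12% of all). The antioxidant response core TGACNNNGC was in 15.3%, 14.4% and 15.4% (13.6% of all). Both strands were searched for each motif, and these shares are descriptions of letters in a window, without a test.

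Stretches of 120 bases upstream of the start are printed for the 3 genes of the replication, E2F and cyclin lists with the largest falls that held an E2F type motif, in lower case with the motif in capitals, 5′ to 3′ on the strand of the gene. E2F2 lies at chr1:23531234-23531353, E2F1 at chr20:33686386-33686505 and MCM3 at chr6:52284853-52284972, all on the minus strand. In E2F2 the capitals are overlapping matches, 1 on each strand.
E2F2: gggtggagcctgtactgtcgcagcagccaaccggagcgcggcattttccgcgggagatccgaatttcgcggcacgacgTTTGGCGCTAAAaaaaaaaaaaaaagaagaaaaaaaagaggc
E2F1: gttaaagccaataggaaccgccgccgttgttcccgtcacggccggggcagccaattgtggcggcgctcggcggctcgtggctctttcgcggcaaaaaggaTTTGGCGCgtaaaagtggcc
MCM3: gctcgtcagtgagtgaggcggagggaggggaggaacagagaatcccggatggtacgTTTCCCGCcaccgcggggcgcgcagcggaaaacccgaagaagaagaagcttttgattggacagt
E2F2 fell from 7.48, 6.32 and 4.59 FPKM to 2.26, 2.31 and 2.33 FPKM (-1.09 ± 0.13, adjusted p = 0.0199), and its treated libraries were close to each other and under all untreated ones. Of 38 falling members of these lists with a promoter, on any chromosome, 19 held the motif within the whole window.

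A second set shows the antioxidant response core in the start regions of rising NRF2 targets, of which 2 of 10 with a promoter held it, TXNRD1 at chr12:104215624-104215743 on the plus strand and ME1, malic enzyme 1, at chr6:83431125-83431244 on the minus strand.
TXNRD1: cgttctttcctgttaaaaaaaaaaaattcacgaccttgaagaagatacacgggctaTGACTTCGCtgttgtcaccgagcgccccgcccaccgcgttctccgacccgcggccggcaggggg
ME1: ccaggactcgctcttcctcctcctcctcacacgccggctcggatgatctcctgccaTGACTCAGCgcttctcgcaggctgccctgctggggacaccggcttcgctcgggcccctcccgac
ME1 went from 13.5, 14.1 and 14.1 FPKM to 16.9, 16.3 and 18.4 FPKM (0.29 ± 0.06, adjusted p = 0.0343), a small rise with separate groups. In ME1 the core overlaps the AP-1 type motif TGANTCA. ME1 was not a gene of the naming rule and is given for its motif. The capitals mark letters only, and binding was not measured.

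The authors' deposited table of their own comparison lists 828 genes higher and 718 lower at an adjusted p under 0.05. Of these, 1412 were among the genes tested here, 1155 were called here in the same direction, and none had the opposite sign.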

How the data were processed

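RNA was sequenced from 3 DATS and 3 DMSO libraries of MCF-10A cells. Reads were aligned with STAR 2.6.1d to GRCh38 and compared with DESeq2 by the authors, as the submitters' processing notes list them. How reads were counted, and whether by strand, is not given in sources used here. The FPKM values deposited by the authors cover all genes. Read counts deposited for a subset of genes, the normalized signal, log2 fold changes and p-values beside them are the authors', per the file headers. All 58735 identifiers matched GENCODE 29.

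Multiplying FPKM by gene length and effective library size gave whole reads for 352410 of 352410 values (tolerance 1e-06 read), so 16536482 to 18407213 reads in genes set the precision. Genes with at least 1 FPKM in 3 libraries were fitted with limma 3.58.1 (R 4.3.3) on log2(FPKM + 1), trended variances and the preparation as a block. Genes passed at a Benjamini-Hochberg adjusted p under 0.05. Alternatives used edgeR 4.0.16 and DESeq2 1.42.0 on recovered counts, other scalings, filters and pseudocounts, and each preparation left out. The fit was tested on simulated data.

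The labels number the libraries of each group, with no word on whether equal numbers share a day. The pairing used for the block therefore rests on the data: deviations from the group means correlated at 0.238, 0.222 and 0.359 between libraries of equal number. The block takes up differences in level between the preparations. The p-values set each mean change against how unevenly the difference between DATS and DMSO ran over the 3 preparations. That unevenness may be technical in part.

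Named genes were the largest changes in log2, in mean FPKM and in ratio to error, the largest noncoding changes, up to 3 members of each list and a panel including MYC, TP63, ACTB and GAPDH. Other genes are said to be chosen after their values were seen. Members and lists were chosen with earlier results of these data known.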

Additional observations from a re-analysis of the deposited data

How the results depend on the processing

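With no replicate block, so without pairing, 387 genes were higher and 227 lower, all of them among the calls with the block. In all 12 libraries of both lines 1522 and 770 passed with a block per line, and 633 and 331 passed unpaired. Without a filter on low FPKM (28377 genes) 0 were higher and 0 lower (lowest adjusted p = 0.116), with 3077 and 1876 at an unadjusted p under 0.05 in limma. Rescaling to equal totals gave 837 higher, edgeR 1167 lower and DESeq2 1076 higher and 774 lower. Leaving out 1 preparation gave 0 to 2529 higher and 0 to 1527 lower. Genes whose groups do not overlap numbered 3605, 3828 after quantile normalization and 2374 at 5 FPKM. No called gene turned sign under any alternative run. Among named genes that were not called, the GAPDH log2 change turned to -0.0624 after quantile normalization and -0.0276 with equal totals, the COL1A1 log2 change turned to -0.0149 with equal totals, and the TP63 log2 change ran from -0.175 to 0.0225 when 1 preparation was left out. Of 96 counts of called list members above 0, 16 stayed within 1.5 times with no block, 68 after quantile normalization and 65 in edgeR. The causes of these shifts were not tested. Of genes under 2 FPKM 5.63% rose, against 16.3% at 10 to 50 FPKM, and the parts of depth and of the added pseudocount in this were not tested.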
